A study of Mus musculus with 12 samples.

Results

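The transcripts encoded by mitochondrial DNA (mtDNA) were examined in the hearts of CUG960 mice, a cardiac model of myotonic dystrophy type 1. They were taken as every row of the gene table whose symbol starts with mt-, which gave 37 of 51826 genes: 13 mRNAs, 2 rRNAs and 22 tRNAs. All 37 lay on the mitochondrial chromosome (chrM) in the gene annotation. Poly(A)-selected RNA was sequenced from the atria and from the ventricles of 6 female mice of the FvB strain at 10 weeks of age, giving 12 libraries, 3 per group. CUG960 +dox mice were homozygous for TREDT960I, a doxycycline (dox) inducible transgene that carries 960 interrupted CUG repeats within the end of the human DMPK gene, and hemizygous for MHCrtTA, in which the α-myosin heavy chain promoter drives the dox-dependent activator in cardiomyocytes. MHCrtTA +dox controls carried the activator transgene alone. All mice had received dox chow since postnatal day 1, so induction, diet and activator were shared by both groups, whereas the repeat transgene differed. Parents differed too, since the paper bred CUG960 mice and controls from separate crosses, the controls with wild-type FVB mice. That promoter limits induction to cardiomyocytes, while each library held the RNA of all cells of the chamber. Each library came from 1 mouse, and atria and ventricles with the same mouse number came from the same animal.

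The mitochondrial genome is a small circle whose genes encode core subunits of respiratory complexes I, III and IV and of ATP synthase (complex V), together with the rRNAs and tRNAs needed to translate them inside the organelle. Both strands are transcribed into long polycistronic RNAs, from which the tRNAs are cut out, freeing the mRNAs and rRNAs between them. The heavy (H) strand transcript yields both rRNAs and all mRNAs other than mt-Nd6, which lies on the light (L) strand transcript. Most mitochondrial mRNAs receive a short poly(A) tail, whereas the rRNAs carry only very short tails and the tRNAs none, so poly(A) selection catches these classes to unequal extents. The heart is rich in mitochondria, and the nucleus supplies the other subunits and all factors that copy, transcribe and process mtDNA.

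In mt-Co3 (complex IV), mt-Nd4 (complex I) and mt-Cytb (complex III), the gene itself ends within the stop codon, and the tail on the RNA completes it. The last 24 bases of these 3 genes are shown because they are where the tail that poly(A) selection catches is joined, with the T that starts the incomplete stop codon in capitals. They are read from GRCm38, plus strand, at chrM:9367-9390, chrM:11521-11544 and chrM:15265-15288.
mt-Co3 end: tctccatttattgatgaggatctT
mt-Nd4 end: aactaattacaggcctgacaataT
mt-Cytb end: acaaaatactaaaattatatccaT

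The nuclear genome holds stretches of mtDNA that were copied into it, and reads that match both places can be counted on either. In GRCm38, 11 annotated genes outside chrM matched chrM at 95% identity or more over at least 100 bases, and 7 of them, all unprocessed pseudogenes on the minus strand of chromosome 1, matched at 99% or more. These copies held between 28.0% and 33.5% of the counts on mt- genes and copies together in each library. Gm28661 (chr1:24614885-24615565), identical to mt-Co2 over 681 bases, held 91.9% of the summed counts of the pair. Gm10925 (chr1:24613974-24614651), identical to mt-Atp6 over 678 bases, held 86.7%, and Gm28437 (chr1:24613189-24613971), identical to mt-Co3 over 783 bases, held 85.9%. Counts on mt-Co2, mt-Atp6 and mt-Co3 alone were thus a small part of the reads of those sequences, and the level of each of these genes is uncertain unless its copy is added. Gm28438 (chr1:24612775-24613119) held 61.0% of its sum with mt-Nd3, and Gm10222 (chr1:24612407-24612700) held 40.0% of its sum with mt-Nd4l. Gm29216 (chr1:24615706-24616197) held 10.3% of its sum with mt-Co1, of which it covers 31.3%, and Gm28439 (chr1:24611535-24612410) held 0.253% of its sum with mt-Nd4. Values below are for the mt- gene alone unless the copy is said to be added.

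Among these 7 copies, only Gm29216 and Gm28438 differed from mtDNA within the aligned stretch, each by 1 base, so that within the stretch only reads over that base can separate gene from copy. Reads or mates that run past the end of a stretch can do so as well. The substitution, counted on the plus strand of chrM with the mtDNA base first, was A6393T for Gm29216 and T9461C for Gm28438. The windows at chrM:6390-6404 and chrM:9459-9472 are shown with the differing base in capitals.
mt-Co1: ggaAttgttttatcc
Gm29216: ggaTttgttttatcc
mt-Nd3: atTaacctgtacac
Gm28438: atCaacctgtacac

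Total counts per library ranged from 116127966 to 160676189, with a median of 135817118. At this depth the 95% Wilson interval of a library's mitochondrial share was at most 0.00692 percentage points to either side, and 3 counts, the limit that a count of 0 allows, came to at most 0.0258 CPM (counts scaled to a common library size) of a library's raw total. Both cover counting error only. CPM levels below are set on normalised library sizes. The CUG960 libraries were shallower than the controls in atria and deeper in ventricles, with no overlap in either chamber. The libraries matched their chamber labels. Myl2, Myl3 and the other 4 ventricular cardiomyocyte markers summed to 13830 to 17398 CPM in ventricles and 17.2 to 56.6 CPM in atria. The 8 atrial markers, led by Nppa, summed to 22135 to 29300 CPM in atria and 138 to 375 CPM in ventricles. Ventricles of CUG960 mouse V123 held the highest level of the atrial light chain Myl7 among ventricular libraries, at 55.9 CPM against 0.19 to 19.3 CPM in the other 5.

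The mitochondrial share of all counts was lower in the ventricles of CUG960 +dox mice than in those of controls in every library, whereas in the atria the groups overlapped. In control ventricles the mt- genes held 20.5%, 19.6% and 20.5% of counts, and in CUG960 ventricles 18.4%, 15.3% and 17.3%. The mean was 20.2% ± 0.487 (SD, n = 3) against 17.0% ± 1.55 (SD, n = 3), a ratio of 0.841 (exact two-sided permutation test, p = 0.1, the smallest p that 3 against 3 allows). Every CUG960 library was below every control. In control atria the share was 12.16%, 12.001% and 11.82%, and in CUG960 atria 10.92%, 11.54% and 11.98%, with means of 11.99% ± 0.167 and 11.5% ± 0.532 (SD, n = 3 each) and a ratio of 0.957 (exact permutation p = 0.2). With the 11 copies added, the ratio was 0.834 in ventricles (29.3% ± 0.700 against 24.4% ± 1.86, exact permutation p = 0.1, n = 3 each) and 0.967 in atria (17.2% ± 0.326 against 16.6% ± 0.397, exact permutation p = 0.2, n = 3 each). In bulk tissue, fewer cells of a type and less RNA per cell cannot be told apart, and neither can the amount of an RNA and the length of its poly(A) tail.

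**Figure D1:**
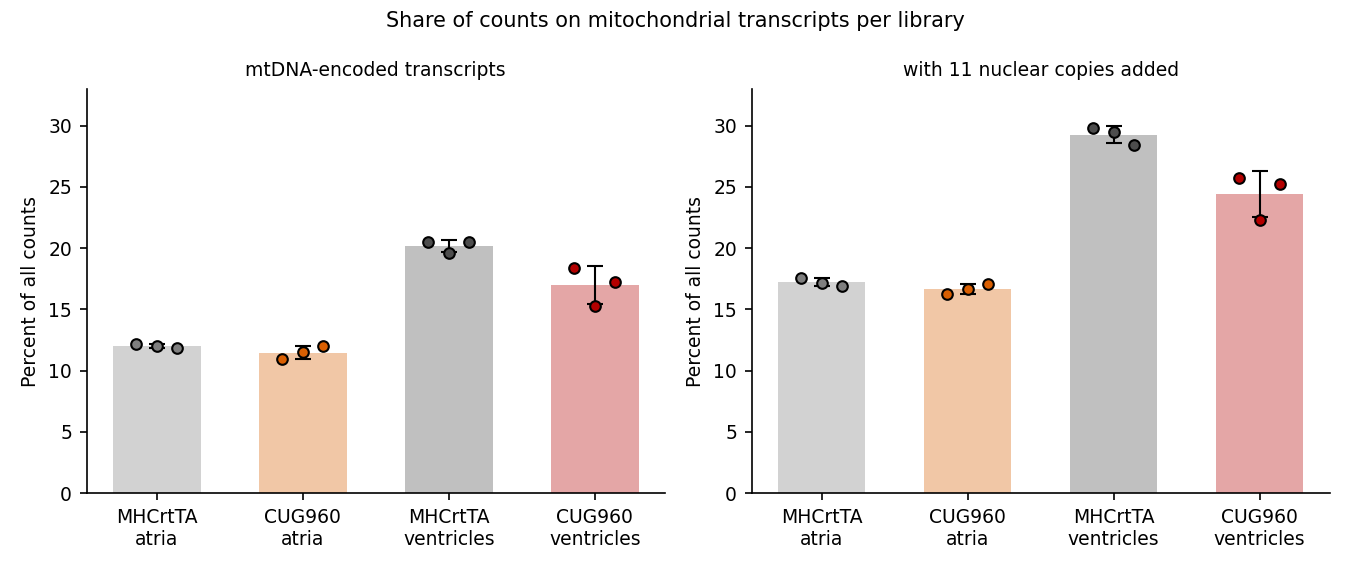
Percent of all counts on the 37 mt- genes (left) and on these with 11 nuclear copies added (right), by group. Points are libraries, bars are means and error bars are SD (n = 3), and in both panels the CUG960 ventricles lie below the 3 control ventricles while the atrial bars differ little.

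The 2 rRNAs formed a smaller part of the mitochondrial counts in CUG960 mice in both chambers. In ventricles mt-Rnr1 and mt-Rnr2 together made up 2.71%, 3.20% and 2.86% of mt- counts in controls and 1.39%, 1.91% and 1.91% in CUG960 mice, a ratio of means of 0.594. In atria the values were 2.30%, 2.20% and 2.66% against 1.77%, 1.97% and 1.86%. The groups did not overlap in either chamber (exact permutation p = 0.1 in each, n = 3 against 3). The per-mouse pattern also differed between the groups. From atria to ventricles this percentage went up by 0.411, 0.995 and 0.198 percentage points in the controls V327, V333 and V334, and changed by -0.388, -0.0594 and 0.0504 in CUG960 mice V119, V120 and V123 (exact permutation p = 0.1, no overlap).

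**Figure D2:**
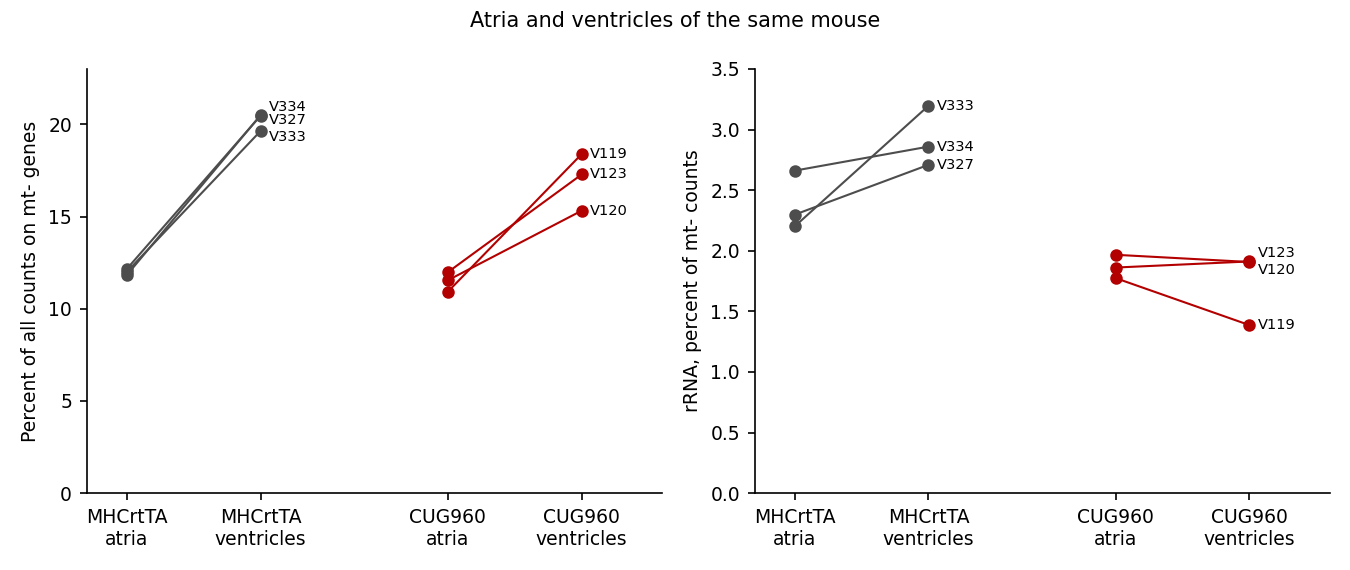
Percent of all counts on mt- genes (left) and rRNA as a percent of mt- counts (right) in the atria and ventricles of each mouse, joined by a line. The share was higher in ventricles in all 6 mice, and the rRNA percent went up from atria to ventricles in the 3 controls and in 1 of 3 CUG960 mice.

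Levels of the mitochondrial mRNAs, given as normalised CPM per kilobase of gene so that genes can be compared, differed widely, more so for the gene rows alone than with copies added. In control ventricles the mRNAs spanned 3172 (mt-Nd3) to 64251 CPM per kb (mt-Co1) alone and 7825 (mt-Nd5) to 72282 CPM per kb (mt-Co1) with copies. mt-Co1, the catalytic core of cytochrome c oxidase, was the most counted gene of the whole table in all 12 libraries, with 3.93% to 8.56% of counts. In control ventricles it stood at 64251 ± 326 CPM per kb (SD, n = 3), followed by mt-Cytb at 31501 ± 682, the complex III subunit, and mt-Atp8 at 22462 ± 1626, a small subunit of ATP synthase. mt-Nd4 followed at 19105 ± 939, mt-Nd1 at 18031 ± 1697 and mt-Nd2 at 16794 ± 1231, all complex I subunits. mt-Nd1 lay within its SD of both mt-Nd4 and mt-Nd2, which differed from each other by more than their SDs, while mt-Co1 and mt-Cytb stood clear of their neighbours. The rRNAs, which poly(A) selection catches poorly, were at 3017 ± 126 (mt-Rnr2) and 2409 ± 364 (mt-Rnr1). With copies added, mt-Co3 (52975 ± 5477), mt-Co2 (51839 ± 6653) and mt-Atp6 (42475 ± 2321) moved up to follow mt-Co1 (72282 ± 2314), and mt-Co3 and mt-Co2 lay within their SD of each other. The first 4 places were held in this order in control atria as well, at 28441, 25194, 20551 and 18860 CPM per kb. On the same strand, the end of mt-Atp8 (chrM:7766-7969) overlaps the start of mt-Atp6 (chrM:7927-8607), and mt-Nd4l overlaps mt-Nd4 by a few bases, so that reads over the shared bases match both genes.

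**Figure D3:**
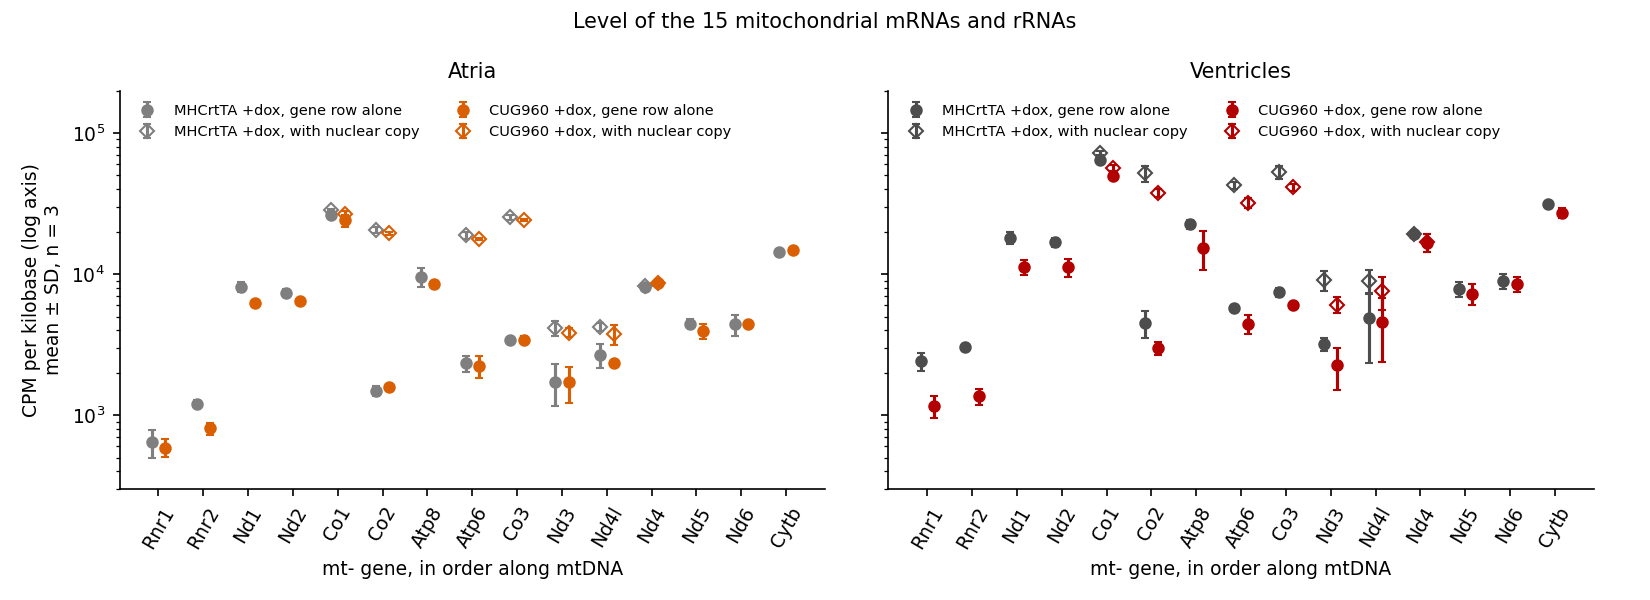
Level of the 15 mitochondrial mRNAs and rRNAs as CPM per kilobase on a log axis (mean ± SD, n = 3) in atria (left) and ventricles (right), for the gene row alone (filled) and with its nuclear copy (open), in the order of the genes along mtDNA. mt-Co1 was the highest in each group, and mt-Co2, mt-Atp6 and mt-Co3 moved up severalfold once their copies were added.

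In ventricles, 5 mitochondrial transcripts were lower in CUG960 +dox mice than in MHCrtTA +dox controls and none was higher. They were both rRNAs and the mRNAs mt-Nd1, mt-Nd2 and mt-Co2. These were 5 of the 20 mt- genes that passed the filter on low counts, of 37 in all, and 4.2% of all 16909 genes tested were called lower (edgeR quasi-likelihood test, Benjamini-Hochberg adjusted p under 0.05). All 13 mRNAs had a fitted difference below 0, with a median of -0.37 on the log2 scale against -0.01 for all genes. When libraries were scaled to the mt- total instead, the difference was below 0 in 7 of the 13 and above 0 in mt-Cytb, mt-Nd4, mt-Nd5, mt-Nd6, mt-Nd4l and mt-Co3. Under that scaling the 2 rRNAs were called lower and 0 of the 13 mRNAs were called. It moved the median of all genes by 0.37 by construction, and mt-Co1 alone held 39.8% of mt- counts. The share of all genes called under it is not given here, so these calls cannot be set beside it. Leaving out 1 mouse gave 3 to 6 calls, and DESeq2 or edgeR without a filter gave more than 5, as listed in the section on processing.

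mt-Rnr2, the large rRNA of the mitochondrial ribosome (chrM:1094-2675), stood at 4631, 5001 and 4687 CPM in control ventricles and 1919, 2091 and 2450 CPM in CUG960 ventricles. The groups did not overlap, and it fell by 1.15 on the log2 scale (SE 0.11, edgeR adjusted p = 0.00037), to 0.452 of the control level. mt-Rnr1, the small rRNA (chrM:70-1024), was at 2056, 2698 and 2148 CPM in controls and 890, 1142 and 1274 CPM in CUG960 mice. It likewise showed no overlap and fell by 1.06 (SE 0.15, edgeR adjusted p = 0.0031). Scaled to the mt- total, both were still called lower, at -0.78 (mt-Rnr2) and -0.69 (mt-Rnr1) on the log2 scale.

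Among complex I subunits, mt-Nd1 (chrM:2751-3707) was at 18508, 17838 and 15421 CPM in control ventricles and 11489, 9155 and 11390 CPM in CUG960 ventricles, and fell by 0.69 (SE 0.12, edgeR adjusted p = 0.0099). mt-Nd2 (chrM:3914-4951) was at 18729, 17395 and 16174 CPM in controls and 12459, 9638 and 12588 CPM in CUG960 mice, and fell by 0.59 (SE 0.13, edgeR adjusted p = 0.021). In both genes every CUG960 library was below every control. Without control V327 the mt-Nd2 call was lost (edgeR adjusted p = 0.089), and scaled to the mt- total neither was called. mt-Nd3 on its own was not called (log2 difference -0.49, SE 0.20, edgeR adjusted p = 0.15). With its copy added it stood at 3307, 3554 and 2572 CPM against 2141, 1818 and 2357 CPM, and it was called lower at -0.58 (SE 0.14, edgeR adjusted p = 0.032). The subunits encoded toward the far end of the H-strand transcript were nearer the control level. mt-Nd4 (chrM:10167-11544) differed by -0.19 (SE 0.13, edgeR adjusted p = 0.38) and mt-Nd5 (chrM:11742-13565) by -0.11 (SE 0.15, edgeR adjusted p = 0.69). mt-Nd6 (chrM:13552-14070), the one mRNA of the L strand, differed by -0.08 (SE 0.13, edgeR adjusted p = 0.76), and its CUG960 libraries, at 4814, 3769 and 4599 CPM, overlapped the controls at 5018, 4927 and 3961 CPM. mt-Nd4l was spread widely on its own row, from 976 to 2312 CPM in controls and 862 to 2093 CPM in CUG960 mice, and differed by -0.09 (SE 0.38). With its copy added it stood at 2730, 2112 and 3123 CPM against 2820, 1639 and 2248 CPM, with overlap, and differed by -0.25 (SE 0.20, edgeR adjusted p = 0.48).

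For complex IV, mt-Co1 (chrM:5328-6872) was at 98964, 98988 and 99849 CPM in control ventricles and 79007, 71902 and 78956 CPM in CUG960 ventricles. The groups did not overlap, but the difference of -0.37 (SE 0.11) missed the threshold (edgeR adjusted p = 0.056). mt-Co2 (chrM:7013-7696), the subunit that receives electrons from cytochrome c, was called lower alone (-0.60, SE 0.16, edgeR adjusted p = 0.046) and with its copy (-0.47, SE 0.12, edgeR adjusted p = 0.041). With its copy it stood at 36619, 39315 and 30439 CPM in controls and 25741, 23996 and 27134 CPM in CUG960 mice, again without overlap. The call for mt-Co2 alone was lost when any one of V119, V120, V123, V327 or V333 was left out, with adjusted p between 0.057 and 0.15. mt-Co3 (chrM:8607-9390) differed by -0.30 alone and -0.36 with its copy and was not called either way (edgeR adjusted p = 0.081 and 0.077).

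mt-Cytb (chrM:14145-15288), the only mtDNA-encoded subunit of complex III, was at 36249, 36690 and 35174 CPM in control ventricles and 33801, 28270 and 31242 CPM in CUG960 ventricles, a difference of -0.21 (SE 0.11, edgeR adjusted p = 0.25). The CUG960 libraries were below the controls without overlap, but the difference did not pass the test. In complex V, mt-Atp6 (chrM:7927-8607), which forms the proton channel, missed the threshold alone (-0.37, SE 0.12, edgeR adjusted p = 0.084) and passed it with its copy (-0.40, SE 0.10, edgeR adjusted p = 0.042). mt-Atp8 (chrM:7766-7969) ranged from 4271 to 4932 CPM in controls and from 2048 to 3788 CPM in CUG960 mice and was not called (-0.54, SE 0.20, edgeR adjusted p = 0.13). Over the 15 mRNAs and rRNAs, 10 had no overlap between the groups in ventricles, all lower in CUG960 mice, and 11 did with copies added. Of all genes tested, 14.9% were lower without overlap.

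In atria, mt-Rnr2 and mt-Nd1 were lower in CUG960 +dox mice, and the other mitochondrial transcripts tested were not called. These were 2 of 17 tested, where 6.62% of all 17650 genes were called lower. mt-Rnr2 was at 1956, 1752 and 1987 CPM in control atria and 1136, 1317 and 1365 CPM in CUG960 atria. It fell by 0.58 (SE 0.09, edgeR adjusted p = 0.0046), with no overlap. mt-Nd1 was at 8453, 7490 and 7314 CPM in controls and 5790, 5905 and 6088 CPM in CUG960 mice, and fell by 0.39 (SE 0.07, edgeR adjusted p = 0.011), also with no overlap. Both calls held when scaled to the mt- total (-0.48 and -0.28), and neither reached a 1.5-fold limit, which 2.12% of all genes passed downward. mt-Rnr1, at 545, 523 and 773 CPM against 496, 652 and 540 CPM, overlapped between the groups and differed by -0.13 (SE 0.16, edgeR adjusted p = 0.64). The 12 mRNAs that were not called differed by -0.19 (mt-Nd2) to 0.10 (mt-Co2) on their own rows. With copies added mt-Co2 differed by -0.078, mt-Co3 by -0.064, against 0.014 alone, and mt-Nd3 by -0.11, against -0.02 alone. The median of the 13 mRNAs was -0.06 alone and -0.10 with copies added, against -0.01 for all genes. mt-Co1 differed by -0.14 (SE 0.08, edgeR adjusted p = 0.29). Of the 15 mRNAs and rRNAs, 4 were lower without overlap (6 with copies added), beside 17.2% of all genes.

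**Figure D4:**
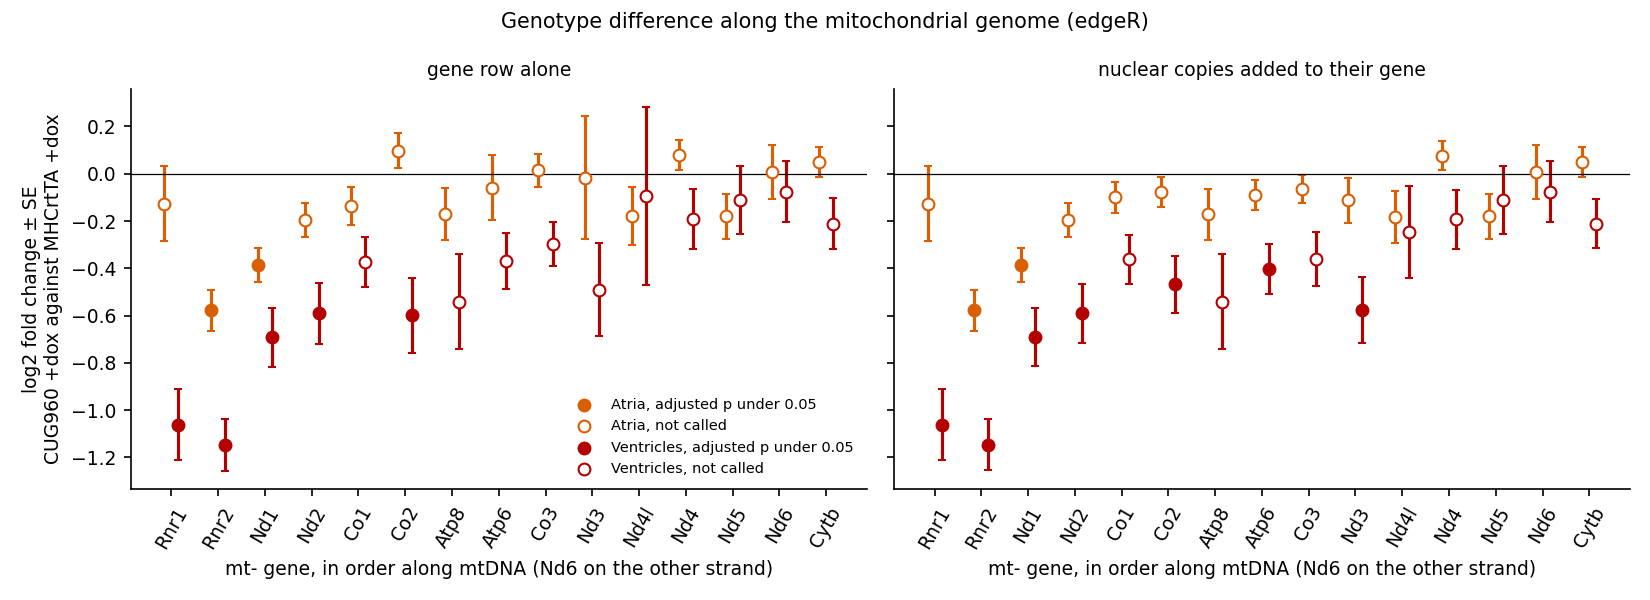
Fitted log2 difference between CUG960 and control mice for each mitochondrial mRNA and rRNA in atria and ventricles, in the order of the genes along mtDNA, for the gene row alone (left) and with nuclear copies added (right). Error bars are SE and filled points passed the test; in ventricles the rRNAs lie near -1.1 and mt-Nd1 and mt-Nd2 near -0.6, while mt-Nd4, mt-Nd5, mt-Nd6 and mt-Cytb lie between -0.21 and -0.08.

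Along the 14 genes of the H strand, the genotype difference in ventricles was larger for genes nearer the start of the transcript. Across genes, the log2 difference and the position of the gene's midpoint had a Pearson's r of 0.88 and a Spearman's rho of 0.90 (n = 14 genes). Over the 12 mRNAs without the rRNAs these were 0.80 and 0.85, and with copies added, over the 14 genes, 0.88 and 0.89. In atria they were 0.60 and 0.45. Between ventricles and atria, over the 14 genes, they were -0.63 and -0.69 in control mice and -0.05 and 0.07 in CUG960 mice. A trend with position was thus not limited to the genotype comparison, since in controls the rise in ventricles was also larger nearer the start. These genes share libraries and a precursor RNA and are not independent replicates, so no p is given. For comparison, r in ventricles with the GC content of the gene was 0.39 over the 14 genes and 0.40 over the 12 mRNAs (0.40 and 0.42 with copies added). With gene length it was -0.05 over the 14 genes and 0.33 over the 12 mRNAs (0.021 and 0.50 with copies added). The counts of mt-Nd1 and mt-Nd2 together per count of mt-Nd4 and mt-Nd5, a ratio free of scaling between libraries, give the same difference library by library for complex I mRNAs that were picked with their values in view, and add no support for it. The ratio was 0.858, 0.944 and 0.765 in control ventricles and 0.581, 0.622 and 0.642 in CUG960 ventricles. In atria it was 0.813, 0.777 and 0.786 in controls and 0.673, 0.676 and 0.635 in CUG960 mice. In both chambers all 3 CUG960 libraries were below all 3 controls. The share of mt-Cytb in the mRNA counts with copies was higher in CUG960 mice. It was 10.3%, 10.4% and 10.8% in control and 12.1%, 11.6% and 11.1% in CUG960 ventricles. In atria it was 11.07%, 10.98% and 11.05% in control and 12.02%, 12.12% and 12.17% in CUG960 mice. As a part of a whole drawn from the same values, this share adds no support either. The level of mt-Cytb itself differed by -0.21 in ventricles and 0.05 in atria on the log2 scale. Complex IV mRNAs held 51.0% to 56.5% of the mRNA counts with copies, complex I mRNAs 23.1% to 27.6% and complex V mRNAs 9.0% to 10.3% over the 12 libraries.

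Ventricles had more mitochondrial RNA than atria in both genotypes. In control mice 17 of the 19 mt- genes tested were higher in ventricles, beside 27.5% of all 17451 genes called higher, and in CUG960 mice 15 of 17, beside 27.5% of 17559. The increase for mRNAs in controls was from 0.82 (mt-Nd5) to 1.61 (mt-Co2, or 1.34 with its copy) on the log2 scale. mt-Co1 rose by 1.29 (SE 0.10, edgeR adjusted p = 1.2e-05), mt-Rnr2 by 1.34 (SE 0.09) and mt-Rnr1 by 1.91 (SE 0.17). In CUG960 mice mt-Co1 rose by 1.06 (SE 0.10, edgeR adjusted p = 2.6e-05), mt-Rnr2 by 0.77 (SE 0.12) and mt-Rnr1 by 0.98 (SE 0.15). In CUG960 mice mt-Nd3 was 0.41 higher and was not called (edgeR adjusted p = 0.20), but it was called with the mouse as a block (edgeR adjusted p = 0.032) or with its copy added (0.67). For mt-Nd4l on its own row in controls, the difference was 0.87 (edgeR adjusted p = 0.043) with all mice and 0.26 (edgeR adjusted p = 0.16) without V334. With its copy added it was 1.08 (SE 0.14, edgeR adjusted p = 0.00024). All 15 mRNAs and rRNAs were higher in control ventricles without overlap, beside 31.2% of all genes, and 14 in CUG960 mice, beside 31.3%. Scaled to the mt- total, 4 transcripts in controls (mt-Rnr1, mt-Ts1 and mt-Co2 higher, mt-Nd5 lower) and none in CUG960 mice were called. That scaling moved the median of all genes by -1.21 in controls and -0.95 in CUG960 mice by construction. The share of all genes called under it is not given here, so these calls cannot be set beside it.

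Markers of the cells in each chamber differed between atria and ventricles as well. In controls the cardiomyocyte list, led by Myh6, summed to 45252, 44274 and 45769 CPM in atria and 61443, 64129 and 60485 CPM in ventricles. Of its 10 genes 7 were called higher in ventricles and none lower, with a median log2 difference of 0.61, and in CUG960 mice 8 and none, with a median of 0.58. Myh6 itself was not called in either genotype, at -0.12 in controls and -0.09 in CUG960 mice. Most or all genes of the lists for fibroblasts (8 of 9 genes, median -0.88), macrophages and other leukocytes (8 of 9, median -1.17) and the epicardium (4 of 4, median -6.03) were called lower in control ventricles. In CUG960 mice 7 of 9, 9 of 9 and 4 of 4 of these genes were lower. The epicardial list, led by Upk3b, summed to 145 to 255 CPM in atria and 4.01 to 7.61 CPM in ventricles over both genotypes. The endothelial list had 4 of 8 genes higher and 3 lower in control ventricles, and the smooth muscle and pericyte list 5 of 7 higher and 2 lower. In CUG960 mice these were 3 and 2 of 8, and 4 and 2 of 7. Of the 5 erythroid genes, 1 was higher in control ventricles and 5 in CUG960 ventricles. Of 5 adipocyte genes tested, 1 was lower in control ventricles and 3 in CUG960 ventricles. Of the Schwann cell genes, none of 3 tested was called in controls and 2 of 4 were lower in CUG960 ventricles. Among 4 RNAs retained in the nucleus, 2 were lower in control ventricles and 1 in CUG960 ventricles. Of 8 RNAs tested that lack a poly(A) tail, none was called in controls and 1 was lower in CUG960 ventricles. These counts stand beside 27.5% of all genes called higher and 28.3% lower in controls, and 27.5% and 26.7% in CUG960 mice. The part of these cell types in the chamber difference of the mitochondrial transcripts was not tested.

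Within each mouse, the share of counts was higher in ventricles by 8.31, 7.64 and 8.67 percentage points in the controls V327, V333 and V334 and by 7.46, 3.77 and 5.30 in CUG960 mice V119, V120 and V123. The 2 sets did not overlap (exact permutation p = 0.1, n = 3 against 3), whereas the ratios of ventricles to atria, at 1.68, 1.64 and 1.73 against 1.68, 1.33 and 1.44, did. With copies added the ratios, at 1.69, 1.72 and 1.68 against 1.58, 1.34 and 1.48, did not overlap. Group means gave ratios of 1.68 in controls and 1.48 in CUG960 mice (exact permutation p = 0.1 in each, n = 3 against 3, or 0.25, the smallest possible, when paired by mouse). The interaction of chamber and genotype tests for each gene whether the genotype difference differed between chambers. It called 0 of 21 mt- genes with edgeR, beside 1.38% of all 18327 genes, while 6 had an unadjusted p under 0.05, as did 12.3% of all genes. mt-Rnr2 came nearest at -0.57 (SE 0.14, edgeR adjusted p = 0.083) and passed with the mouse as a block (-0.58, SE 0.12, edgeR adjusted p = 0.046). mt-Rnr1 was at -0.94 (SE 0.25, edgeR adjusted p = 0.10) and mt-Co2 alone at -0.70 (edgeR adjusted p = 0.13), or -0.39 with its copy added (SE 0.14, edgeR adjusted p = 0.24). DESeq2 called 3, and edgeR without a filter on low counts also called 3, mt-Rnr1, mt-Rnr2 and mt-Co2, the last on its own row without the copy. The share of all genes called under these settings is not given here, so the 3 calls cannot be set beside it.

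The 22 tRNAs, which carry no poly(A) tail and are 59 to 75 bases long, had 4174 counts in all over the 12 libraries, 125 to 652 per library. Of these genes, 9 had no count in any library, all among the 14 H-strand tRNAs, which allows at most 3 counts per library. The 8 tRNAs of the L strand held 95.8% of tRNA counts, and mt-Ts1 alone, whose gene overlaps the end of mt-Co1 on the opposite strand, held 76.4%. Whether counting used the strand was not given in the sources used here, so reads of the L-strand tRNAs and of the H-strand transcript that passes over them cannot be told apart, and the same holds for mt-Nd6. mt-Ts1 was higher in ventricles by 1.94 (SE 0.21) in controls and 1.54 (SE 0.38) in CUG960 mice, and in ventricles it differed by -0.71 (SE 0.28, edgeR adjusted p = 0.14) between genotypes. mt-Tc was higher in control ventricles by 1.97 (SE 0.43, edgeR adjusted p = 0.0046), while mt-Tn differed by 1.44 and was not called with all mice (edgeR adjusted p = 0.097). mt-Tn was called with the mouse as a block (1.64, edgeR adjusted p = 0.038) and without V327 (2.41, edgeR adjusted p = 0.020). mt-Te and mt-Ty were not called in any comparison in which they were tested, and neither was mt-Tl1, which was tested for the interaction only.

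Most nuclear genes of complexes I to V were higher in ventricles than in atria. Between genotypes, 3 of them were called in atria and none in ventricles. Of 80 nuclear genes of complexes I to V, 78 were higher and 1 lower in control ventricles than in control atria, with a median of 1.13 on the log2 scale. The lower one was Cox8a (-0.25, edgeR adjusted p = 0.012), and Cox6a1, at 0.15, was not called. In CUG960 mice 77 were higher and none lower, with a median of 0.98. In ventricles of CUG960 against control mice none of the 80 was called in either direction, beside 5.73% of all genes called higher and 4.2% lower. The median was -0.08 and 66 of 80 had a difference below 0. In atria 2 were higher and 1 was lower, beside 7.95% and 6.62% of all genes, with a median of 0.05. These were the complex I subunit Ndufa12 (0.25, edgeR adjusted p = 0.037), the ATP synthase inhibitor Atpif1 (0.37, edgeR adjusted p = 0.030) and the complex I subunit Ndufs7 (-0.27, edgeR adjusted p = 0.015).

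**Figure D5:**
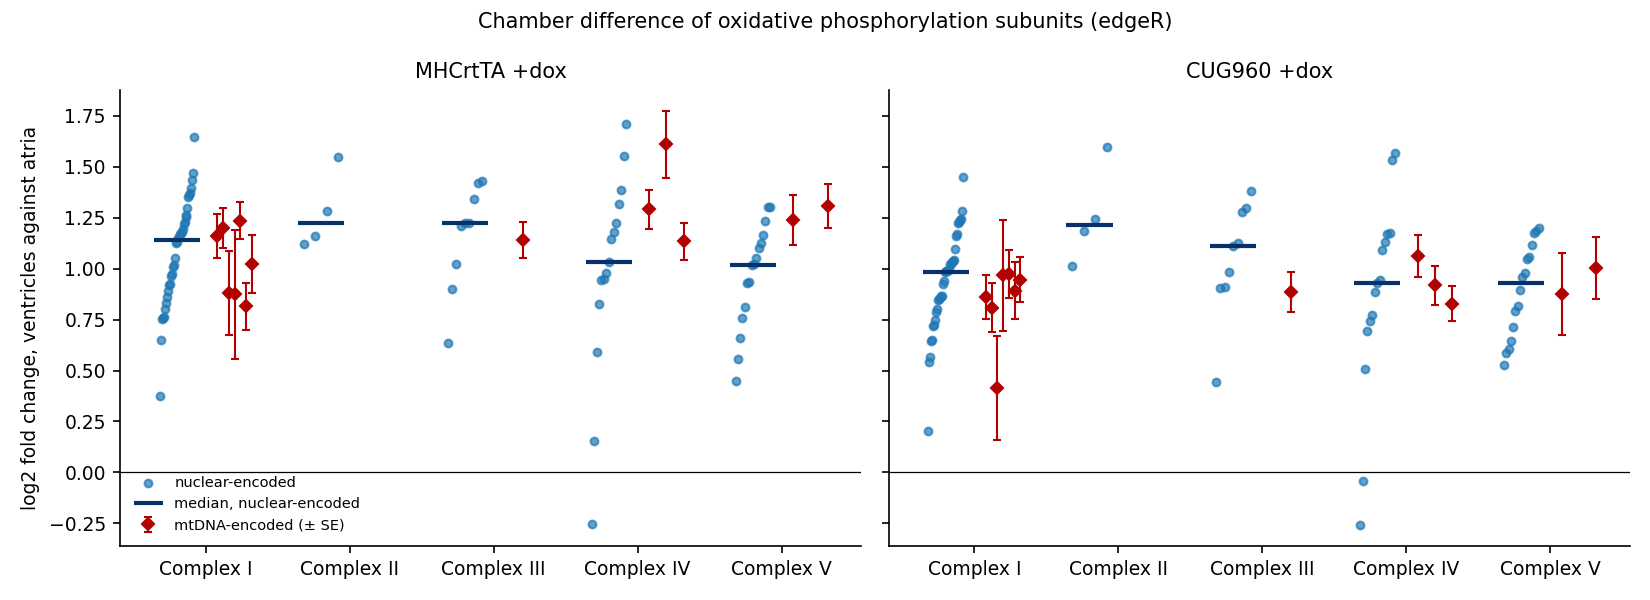
Log2 difference between ventricles and atria of the nuclear genes (circles, with their median as a line) and the mtDNA-encoded mRNAs (diamonds ± SE) of each respiratory complex, in controls (left) and CUG960 mice (right). All mtDNA-encoded mRNAs lie above 0 in both genotypes, as do all but 1 of the 80 nuclear genes in controls.

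Of the nuclear genes that act on mtDNA or its RNA, some were called between genotypes in each list, at shares to be read beside those of all genes, 7.95% higher and 6.62% lower in atria and 5.73% higher and 4.2% lower in ventricles. Of 20 genes for mtDNA transcription and maintenance, Polg2, the accessory subunit of the mtDNA polymerase, was higher in atria (0.50, edgeR adjusted p = 0.028), and Top1mt, the mitochondrial topoisomerase, was lower in ventricles (-0.46, edgeR adjusted p = 0.037). Of 33 genes for mitochondrial RNA processing and stability, 3 were higher in atria: the tRNA methyltransferase Trmt5 (0.41, edgeR adjusted p = 0.0061), the rRNA methyltransferase Nsun4 (0.28, edgeR adjusted p = 0.015) and 1110008L16Rik (0.41, edgeR adjusted p = 0.028). In ventricles the pseudouridine synthase Trub2 was higher (0.40, edgeR adjusted p = 0.022), while Lrpprc and the rRNA methyltransferase Mrm3 (-0.44, edgeR adjusted p = 0.026) were lower. Lrpprc, which binds and stabilises mitochondrial mRNAs and promotes their polyadenylation, was at 183, 188 and 183 CPM in control ventricles and 143, 134 and 152 CPM in CUG960 ventricles. The groups did not overlap, and it fell by 0.37 (SE 0.07, edgeR adjusted p = 0.015). Of 13 translation factors, Taco1, the activator of mt-Co1 translation, was lower in both chambers (-0.32, edgeR adjusted p = 0.020 in atria, and -0.27, edgeR adjusted p = 0.042 in ventricles), and no other was called. Of 11 regulators of mitochondrial biogenesis, none was called in atria, and 2 nuclear receptors of the ERR family were higher in ventricles. Esrrb was at 42.4, 35.4 and 39.5 CPM in controls and 59.4, 67.9 and 59.7 CPM in CUG960 mice, with no overlap, and rose by 0.67 (SE 0.09, edgeR adjusted p = 0.0023). Esrrg rose by 0.41 (edgeR adjusted p = 0.024).

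Between chambers more genes were called in each of these lists, as also among all genes, and the 2 kinds of comparison were not tested against each other. In control mice 13 of the 20 mtDNA transcription and maintenance genes, 27 of the 33 RNA processing genes and 11 of the 13 translation factors were higher in ventricles, and 2, 1 and 0 were lower, beside 27.5% and 28.3% of all genes. The 11 biogenesis regulators were split, with 2 higher and 2 lower and a median log2 difference of -0.01. In CUG960 mice the counts were 10, 26 and 11 higher and 2, 3 and 0 lower, beside 27.5% and 26.7% of all genes, with 3 biogenesis regulators higher and 1 lower. None of these lists had a gene called for the interaction.

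Among 1445 genes with a mean above 100 CPM over the 12 libraries, those whose log2 level over the 12 libraries was most like the summed mitochondrial level were Hspa9, the mitochondrial Hsp70 chaperone (Pearson's r = 0.995), Lrpprc (0.994), the copy Gm10925 (0.993), Dld, a subunit of mitochondrial dehydrogenase complexes (0.993), and Cxcl12, a secreted chemokine (0.991). The 12 libraries fall into 2 chambers that differ in most of these genes. No r within a chamber is given here, and the part of the chamber in these values was not tested. Gm10925 is identical to mt-Atp6 over 678 bases, so mitochondrial reads can be counted on it and its r is no separate result. Lrpprc and Cxcl12 passed the limit on the mean only through the ventricles, since in atria their group means were 78.5 to 86.0 CPM and 38.6 to 51.0 CPM, so for them the limit itself favoured a high r.

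Markers of the cells in the chamber also moved with the genotype. Their called counts stand beside 5.73% of all genes called higher and 4.2% lower in ventricles, and 7.95% higher and 6.62% lower in atria. The 10 cardiomyocyte markers, most abundant of which was Myh6, summed to 61443, 64129 and 60485 CPM in control ventricles and 62614, 67740 and 64557 CPM in CUG960 ventricles, with overlap. Of these 10, 1 was called higher and 1 lower in ventricles, and 2 higher and 2 lower in atria. The endothelial list, led by Pecam1, summed to 967, 818 and 902 CPM in control and 679, 665 and 706 CPM in CUG960 ventricles, and 3 of its 8 genes were called lower. In atria the endothelial sums were 983, 1058 and 845 CPM against 688, 816 and 730 CPM, with 4 of 8 called lower. The smooth muscle and pericyte list, led by Rgs5, summed to 843, 792 and 842 CPM against 641, 670 and 632 CPM in ventricles, with 5 of 7 called lower. Both lists were lower in CUG960 ventricles in every library. Of the 9 fibroblast genes, led by Dcn, 4 were lower in atria and none was called in ventricles, and of 5 adipocyte genes tested, led by Cfd, 3 were lower in ventricles, where they summed to at most 6.23 CPM. No macrophage or erythroid marker was called between genotypes. Of the Schwann cell genes, 1 of 3 tested was lower in ventricles, with a median log2 difference of -0.56, and none of 4 was called in atria. Hbb-bs led the erythroid list, which summed to 2766 CPM in the atria of control V334 and 323 to 514 CPM in the other 5 atria. A list of RNAs that lack a poly(A) tail, such as 7SK RNA and histone mRNAs, summed to 43.6 to 77.3 CPM over the 12 libraries, and none of its genes was called in either genotype comparison. Of 4 RNAs retained in the nucleus, Neat1, the scaffold of paraspeckles, was lower in atria (-0.42, edgeR adjusted p = 0.029). The other 3 were not called in either chamber, and the list summed to 253, 369 and 338 CPM in control atria and 252, 213 and 214 CPM in CUG960 atria. All 4 had a log2 difference below 0 in both chambers, with a median of -0.50 in atria and -0.09 in ventricles. The part of these cell types and of poly(A) selection in the mitochondrial differences was not tested.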

How the data were processed

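The deposited table holds estimated counts per gene made by the authors with RSEM 1.3.1 on GRCm38 from poly(A)-selected, stranded libraries. All values were whole, and they were used as deposited. Each chamber and genotype was a group of 3 mice. edgeR 4.0.16 (R 4.3.3) was run on the whole table with TMM scaling, filterByExpr and the quasi-likelihood test, Benjamini-Hochberg adjusted over all genes tested, with 0.05 as threshold. Genotypes were compared within each chamber and chambers within each genotype, and their interaction was tested over all 12 libraries. Levels are CPM with TMM factors over the 12 libraries. These factors were above 1 in atria and below 1 in ventricles, which makes chamber folds of single genes exceed the ratios of shares. In ventricles they were 0.829, 0.815 and 0.857 in controls V327, V333 and V334 and 0.908, 0.904 and 0.887 in CUG960 mice V119, V120 and V123. CUG960 levels there thus lie lower against controls than shares of counts do. Shares of counts were compared by exact two-sided permutation tests. Alternatives were DESeq2 1.42.0, other scalings and filters, the mouse as block, leaving out each mouse, and the copies added to their genes, the last chosen after seeing the data. Statistics were tested on simulated counts.

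Nuclear copies were found by aligning annotated transcripts to chrM with BLAST+ 2.17.0, and sequences and coordinates were read from GRCm38. Atria and ventricles were paired through the animal. The deviations from group means of samples of the same mouse correlated at 0.0454 to 0.320, and those of different mice of a genotype at -0.386 to 0.155. The named genes were all mt- mRNAs and rRNAs, each mt- tRNA that passed the filter, and, of the nuclear lists, those called between genotypes with the smallest adjusted p. Outside this rule, Polg2, Top1mt, 1110008L16Rik, Mrm3, Esrrg, Neat1, Cox8a and Cox6a1 were picked with their values in view. One marker list is not reported here. The members and all gene lists were chosen with earlier results of these data known.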

Additional observations from a re-analysis of the deposited data

How the results depend on the processing

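Both rRNAs and mt-Nd1 in ventricles and mt-Rnr2 and mt-Nd1 in atria kept their direction in every alternative and were called in each that leaves out 1 mouse. The counts of called transcripts that moved by over 1.5 times were as follows. In atria the 2 calls became 0 with a 1.5-fold limit. In ventricles the 5 calls became 10 with DESeq2, 9 without a filter on low counts, 2 when scaled to the mt- total and 3 to 6 when 1 mouse was left out, with 3 without control V327. For the interaction the 0 calls became 3 with DESeq2, 3 without a filter, 1 with the mouse as replicate block and 0 to 1 when 1 mouse was left out, with 1 (mt-Co2) without V334. Adding copies, chosen after seeing the data, gave 7 calls in ventricles. The share of all genes called under these alternatives is not given here. For the chamber, scaling to the mt- total gave 4 calls in place of 17 in controls, with mt-Nd5 turned from higher to lower, and 0 in place of 15 in CUG960 mice. With the mouse as replicate block, the calls for the chamber were 18 in controls and 16 in CUG960 mice, and beyond mt-Tn, mt-Nd3 and mt-Rnr2 (interaction) no mitochondrial call changed. Ratios of the mitochondrial share kept their direction throughout.

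Scaling to the mt- total moved the median log2 difference of all genes by 0.10 in atria, 0.37 in ventricles, -1.21 and -0.95 between chambers in controls and CUG960 mice, and 0.26 for the interaction, by construction. Under it, log2 differences turned in atria for mt-Atp6 (0.057) and mt-Nd3 (0.11). In ventricles they turned for mt-Ty (0.039), mt-Co3 (0.070), mt-Nd4l (0.24), mt-Nd4 (0.16), mt-Nd5 (0.24), mt-Nd6 (0.28), mt-Te (0.21) and mt-Cytb (0.15). Between chambers in controls they turned for mt-Nd1 (-0.047), mt-Nd2 (-0.0087), mt-Co3 (-0.072), mt-Nd3 (-0.32), mt-Nd4l (-0.32), mt-Nd5 (-0.39), mt-Nd6 (-0.18), mt-Te (-0.47) and mt-Cytb (-0.067). In CUG960 mice they turned for mt-Rnr2 (-0.18), mt-Nd1 (-0.10), mt-Nd2 (-0.15), mt-Co2 (-0.038), mt-Atp8 (-0.10), mt-Co3 (-0.12), mt-Nd3 (-0.57), mt-Nd4l (-0.0083), mt-Nd5 (-0.071), mt-Nd6 (-0.020) and mt-Cytb (-0.074). For the interaction they turned for mt-Tn (0.067), mt-Co1 (0.027) and mt-Nd6 (0.16). With copies added, mt-Co2 (-0.078) and mt-Co3 (-0.064) turned in atria and mt-Nd4l (-0.065) for the interaction.

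Leaving out 1 mouse turned the sign of some differences. In atria the log2 difference then ranged from -0.25 to 0.077 for mt-Rnr1, -0.21 to 0.047 for mt-Atp6, -0.025 to 0.055 for mt-Co3, -0.17 to 0.28 for mt-Nd3 and -0.10 to 0.13 for mt-Nd6. In ventricles it ranged from -0.55 to 0.42 for mt-Nd4l, -0.23 to 0.011 for mt-Nd5, -0.17 to 0.025 for mt-Nd6, -0.65 to 0.14 for mt-Te and -0.96 to 0.43 for mt-Ty. For the interaction it ranged from -0.39 to 0.70 for mt-Nd4l, -0.14 to 0.19 for mt-Nd5, -1.13 to 0.39 for mt-Tc, -0.25 to 0.81 for mt-Te, -1.14 to 0.24 for mt-Tn and -1.79 to 0.67 for mt-Ty. None of these was called with all mice. Leaving out 1 mouse also ended the chamber calls of mt-Nd3 and mt-Nd4l in controls (without V333, adjusted p = 0.052 and 0.059), mt-Atp8 in CUG960 mice (without V119, adjusted p = 0.052) and mt-Nd4l in CUG960 mice (without V120, adjusted p = 0.053), and in ventricles added mt-Atp6 (adjusted p = 0.040) and mt-Nd3 (adjusted p = 0.0077) to the genotype calls without V119, all by edgeR. mt-Tn was added to the chamber calls in controls without V327 (edgeR adjusted p = 0.020). The causes were not tested. The tRNAs rested on few counts, at most 533 for any of them in a library.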
